A study of Mus musculus with 6 samples.

Results

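Foxd1 and Wt1 mesenchyme was defined here as the cells of the E10.5 XX gonad library that carried at least 1 UMI (unique molecular identifier, 1 counted transcript) of Foxd1 and at least 1 UMI of Wt1 or Tbx18, and 0 UMIs of Pax1, Pax9 and Upk3b. A barcode was kept if it had 500 or more genes with a UMI and no more than 10% of its UMIs from mitochondrial genes. Of 6259 barcodes kept in that library, 240 met the rule. That was 3.83% of the kept barcodes (exact Clopper-Pearson 95% interval 3.37 to 4.34%), in a series of 28621 kept barcodes. The remaining 6019 kept E10.5 barcodes served as the comparison. The members were chosen by measured UMI counts, so the levels of the 6 genes of the rule are a description of the choice.

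The series holds 6 droplet single-cell RNA libraries, with 1 library per group. Of these, 5 are XX gonad tissue of ICR mouse embryos, taken at the embryonic stages E10.5, E11.5, E12.5, E13.5 and E14.5. The other library, Induced D6, holds somatic cells of the gonad made in culture from 129svj x C57BL/6J embryonic stem cells. Those cells grew as aggregates for 6 days in 3 steps of 2 days each. The first step used CHIR, BMP4 and EGF, the second BMP4, retinoic acid, PD0325901, SHH and EGF, and the third BMP4 and FGF9. The labels list no engineered allele for any group, and the number of embryos behind each tissue library is not given in the sources used here.

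As background, Foxd1 is a forkhead transcription factor of the stromal progenitors of the developing kidney and of the mesenchyme beside them, whose descendants include interstitial fibroblasts, pericytes and mesangial cells. Wt1 is a zinc finger factor of the coelomic epithelium, the mesenchyme beneath it, the nephron progenitors and the somatic cells of the gonad, and Tbx18 is a T-box factor of urogenital and epicardial mesenchyme. Pax1 and Pax9 mark sclerotome, the part of the somite that forms the axial skeleton, and Upk3b marks mesothelium. Adh1 is an alcohol dehydrogenase that can oxidise retinol, the first step towards retinoic acid, and Cxcl12 is a chemokine that mesenchymal cells secrete for cells bearing its receptor Cxcr4.

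On the GRCm38 assembly with the GENCODE vM21 annotation, Foxd1 lies at chr13:98354242-98359305 on the plus strand. Wt1 lies at chr2:105126529-105173616 on the plus strand and Tbx18 at chr9:87702800-87731260 on the minus strand. Adh1 lies at chr3:138260991-138290698 and Cxcl12 at chr6:117168535-117181367, both on the plus strand. All 5 are annotated as protein-coding genes.

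The rule rested on few molecules per cell. Of the 240 cells, 151 carried 1 Foxd1 UMI, 47 carried 2, 27 carried 3, 11 carried 4, 1 carried 5 and 3 carried 6. Wt1 without Tbx18 was counted in 158 cells, Tbx18 without Wt1 in 41 and both genes in 41, so 41 of the cells carried no Wt1 UMI at all. A cell without a UMI of a gene may still hold its transcript, and fewer transcripts per cell cannot be told apart here from fewer reads per cell. The selected cells had a median of 8006.5 UMIs (2110 to 28822), against 6472 in the other kept barcodes (719 to 57838). The lowest number of genes in a selected cell was 1174 and the highest mitochondrial share 8.77%, and neither filter on barcodes removed a cell that met the gene rule. As a description of the choice, Foxd1 stood at 179.8 CPM (a gene's UMIs per 1000000 UMIs summed over a group of cells) in the selected cells and 22.3 CPM in the other kept barcodes. Wt1 stood at 176.6 CPM in the selected cells and 42.9 CPM in the other barcodes, and Tbx18 at 43.9 CPM in the selected cells and 11.4 CPM in the other barcodes.

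The gene values on both sides of the thresholds were as follows. Adh1 stood at 92.7 CPM in the 151 cells with 1 Foxd1 UMI and at 50.6 CPM in the 89 cells with 2 or more. Just outside the rule, it stood at 15.6 CPM in 271 cells that carried Foxd1 and none of the other 5 genes, and at 42.1 CPM in 877 cells that carried Wt1 or Tbx18 without Foxd1. The 22 cells kept out by a single Pax1 or Pax9 UMI had 58.0 CPM of Adh1 and 330.2 CPM of Cxcl12. The 27 kept out by Upk3b had 8.36 CPM of Adh1, 363.8 CPM of the epithelial keratin Krt18 and 309.5 CPM of Aldh1a2, which makes retinoic acid. The 22 cells kept out by 1 Pax UMI had 8.92 CPM of Krt18 and 102.6 CPM of Aldh1a2, against 43.5 and 89.7 CPM in the selected cells. In Adh1, Krt18 and Aldh1a2 the cells kept out by Upk3b thus stood further from the selected cells than those 22 did. Sox9 went the other way, with 129.4 CPM in the 22 cells, 58.55 CPM in the 27 and 68.2 CPM in the selected cells. Pdgfra had 26.8, 33.5 and 50.3 CPM in the same order. The sets of 22 and 27 cells are small and no interval is given for them, so low or close values such as those of Pdgfra cannot be ranked.

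Facts of the library touched every value below. Cells are not replicates and each group has 1 library, so differences between groups could not be tested, and all intervals cover counting error only. The E10.5 library shared 19 to 72 barcodes with each other library (0.296 to 1.12% of its barcodes), and 0 to 3 of the selected cells were among them. Of the selected cells, 13 carried 5 or more markers of another lineage, namely 5 with endothelial, 5 with muscle, 2 with neural and 1 with nephric duct markers. Among all kept barcodes, 1007 (16.1%) carried such markers or at least 10% erythroid UMIs. Scrublet, a doublet caller, marked 1 barcode (0.0160%) and had therefore not worked as a caller. The 322 highest Scrublet scores included 28 of the selected cells, 11.7% of them, against 5.15% of all kept barcodes. The share of doublets among the cells was not tested further. The library is labelled gonad, but Nr5a1, a defining gene of the gonadal somatic lineage, stood at 0.458 CPM in the selected cells (1 UMI) and at 1.93 CPM in the other barcodes. Lhx9, another factor of the genital ridge, stood at 8.70 CPM in the selected cells and 17.2 CPM in the other barcodes.

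The name mesenchyme was checked against markers outside the rule. The mesenchymal factor Prrx1 was counted in 122 of the 240 cells, at 113 CPM in the selected cells and 66.2 CPM in the other barcodes. The growth factor receptor Pdgfra was counted in 84 cells, at 50.3 CPM in the selected cells and 28.1 CPM in the other barcodes, and the collagen gene Col1a1 in 80 cells, at 52.6 CPM in the selected cells and 34.0 CPM in the other barcodes. Twist1, another mesenchymal factor, did not stand apart, with 56.3 CPM in the selected cells and 57.3 CPM in the other barcodes. The epithelial keratin Krt18 was counted in 41 of the 240 cells, at 43.5 CPM in the selected cells and 90.7 CPM in the other barcodes. Cdh1, the epithelial cadherin, had 0 UMIs in the selected cells and 2.265 CPM in the other barcodes. The 12 leukocyte markers summed to 5.03 CPM in the selected cells and 28.1 CPM in the other barcodes. The 15 neural and neural crest markers summed to 108 CPM in the selected cells and 367.6 CPM in the other barcodes. For both lists the median over cells was 0 in both sets. Among the neural markers Sox10 was at 0 in the selected cells, but Nes had 51.25 CPM against 66.42 CPM in the other barcodes, and Map2 9.15 CPM against 6.32 CPM. Six2, which defines nephron progenitors, had 2 UMIs in the selected cells, at 0.915 CPM against 0.634 CPM in the other barcodes. Cdh1 and Six2 were so low in both sets that their counts say little about the name. The cells did not form a single cluster, as shown further on, so they are called the selected cells below.

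Against all other kept E10.5 barcodes, the selected cells stood out by Adh1, by some forkhead genes and by some genes of mesenchyme. The mesenchyme markers Prrx1, Pdgfra, Col1a1 and Twist1 stayed under 2-fold. The cells also had lower levels of many red cell, neural and nephric duct genes and of some limb and muscle genes. Of 5671 genes with at least 20 CPM in either sum, leaving out the 6 rule genes, 43 were higher in the selected cells by 2-fold or more (0.758% of the genes) and 97 were lower by as much (1.71%). The median log2 ratio of all genes was 0.06. Adh1 had the largest ratio among genes at 50 CPM or more, with 76.0 CPM in the selected cells and 10.9 CPM in the other barcodes, which was 6.99-fold higher (95% interval 5.82 to 8.35). Adh1 UMIs were spread over 70 of the 240 cells, and the cell with the most held 5.42% of them. The Adh1 ratio was 3.82 when 2 Foxd1 UMIs were asked for, and 10.1 among cells with both Wt1 and Tbx18. Both Adh1 and Cxcl12 were proposed as markers of these cells with earlier results of the same data known, so their ratios describe the cells and are no independent support for the choice.

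Cxcl12 was counted in 169 of the 240 cells, at 275 CPM in the selected cells and 114.3 CPM in the other barcodes, 2.41-fold higher (2.21 to 2.62). Lsp1, an actin-binding protein, had 127.7 CPM in the selected cells and 41.2 CPM in the other barcodes, 3.10-fold higher (2.72 to 3.51). Alx1, a homeobox factor of mesenchyme, had 80.1 CPM and was 2.52-fold higher (2.14 to 2.95). These 4 genes were each spread over 70 or more cells. Shisa3, which encodes an attenuator of Wnt and FGF receptor maturation, was 3.00-fold higher, and Ptx3, a secreted pentraxin, and Lor were each 2.76-fold higher. Plat, the tissue plasminogen activator, was 2.41-fold higher, and Snai2, a factor of epithelial to mesenchymal transition, 2.15-fold. Adamts1, a matrix protease, was 2.21-fold higher, Tgfbi, a secreted matrix protein, 2.18-fold, and Anxa2, an annexin, 2.09-fold.

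**Figure D1:**
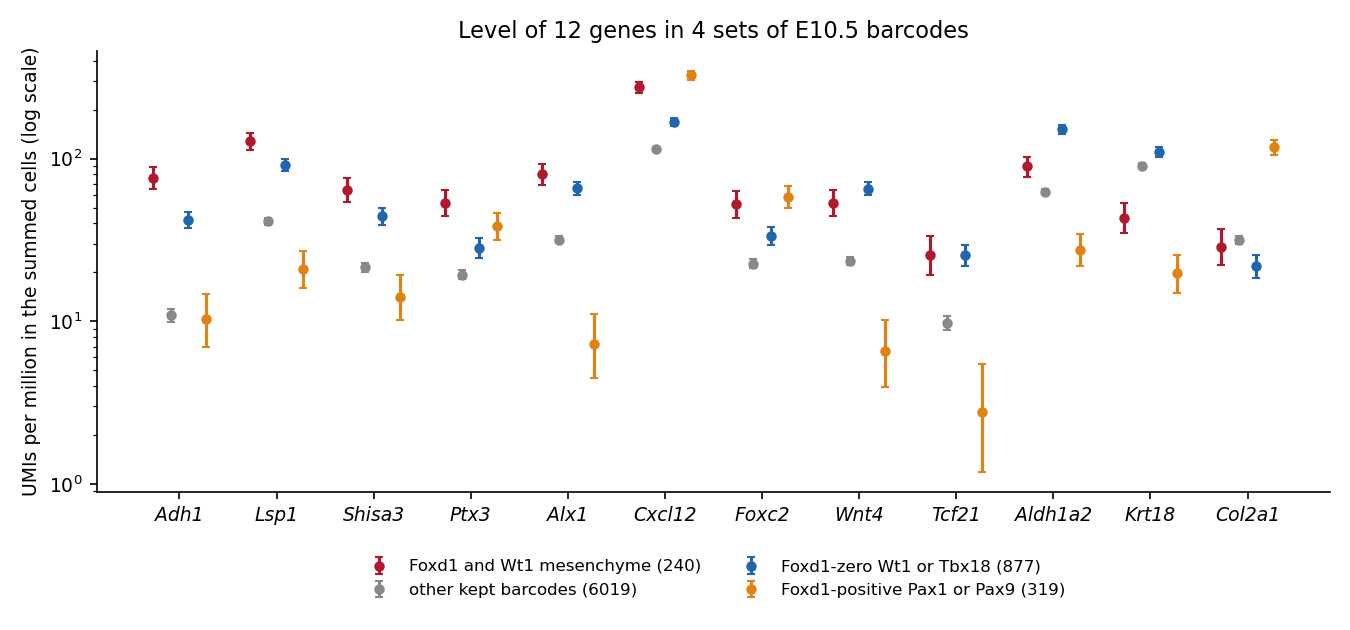
Levels of 12 genes, in CPM on a log scale, summed over 4 sets of E10.5 cells, with exact Poisson 95% intervals that cover counting error only. Adh1 reached 76.0 in the 240 Foxd1 and Wt1 mesenchyme cells, against 10.9 in the other kept barcodes, 42.1 in the Wt1 or Tbx18 cells without Foxd1 and 10.4 in the Foxd1-positive Pax1 or Pax9 cells, while Cxcl12 was highest in the last set (325.8).

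Forkhead genes other than Foxd1 were among the higher genes. Of 7 forkhead genes with enough counts, 3 were at least 2-fold higher and none lower, with a median log2 ratio of 0.57 against 0.06 over all genes. Foxd2, a paralogue of Foxd1, had 21.1 CPM in the selected cells and 5.41 CPM in the other barcodes (3.89-fold, 2.77 to 5.35). Foxc2 and Foxc1, factors of paraxial and intermediate mesoderm, were 2.32-fold and 2.15-fold higher. Foxc2 was counted in 36.7% of the selected cells, 12.3% of the other barcodes and 13.6% of 324 erythroid, endothelial and leukocyte barcodes of the library, which are deeper.

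Among genes known from renal and adrenal-region stroma with at least 20 CPM in either sum, those that passed 2-fold were all higher. Of 13 such genes 4 were at least 2-fold higher and none lower, with a median log2 ratio of 0.72. Below that minimum, Ntn1 (2.75 CPM against 8.52 CPM in the other barcodes) and Zbtb16 (1.37 against 5.57 CPM) were lower, from 6 and 3 UMIs. Fat4, Penk and Crym, also below it, stayed under 2-fold. Ecm1, a secreted matrix protein, was 2.94-fold higher, Tcf21, a bHLH factor of urogenital mesenchyme, 2.63-fold, Cxcl12 2.41-fold and Pdgfrb, the receptor of pericytes and stromal fibroblasts, 2.13-fold. The Tcf21 ratio turned round with the rule: it was 0.763 when 2 Foxd1 UMIs were asked for and 0.752 when each barcode was first thinned to 3000 UMIs. Those sets were small, at 89 cells and at 77 cells of 3000 UMIs each, and no interval is given for them. With the selected cells kept fixed and thinned to 3000 UMIs, Tcf21 was counted in 6.7% of them (3.9 to 10.6%) and in 2.98% of the others. Nr2f2, Meis1 and Meis2 stayed under 2-fold, with ratios of 1.65, 1.53 and 1.39. Of 4 nephron progenitor and nephrogenic cord genes with enough counts only Osr1, an early intermediate mesoderm factor, passed 2-fold (49.9 CPM against 22.2 CPM in the other barcodes, 2.24-fold).

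Retinoic acid genes did not move as 1 group. Of 12 genes with enough counts, 2 were at least 2-fold higher and 1 lower, with a median log2 ratio of 0.37. The higher ones were Adh1 and Dhrs3, which reduces retinal back to retinol. Dhrs3 stood at 43.0 CPM in the selected cells and 15.1 CPM in the other barcodes (2.85-fold, 2.27 to 3.54). Aldh1a2, which oxidises retinal to retinoic acid, had 89.7 CPM in the selected cells and 62.9 CPM in the other barcodes, a ratio of 1.43. Rbp4, the retinol carrier secreted by liver and endoderm, was 7.43-fold lower (4.12 CPM against 30.6 CPM in the other barcodes).

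The counts of higher genes in the ligand, receptor and signalling lists stand against 0.758% of all genes tested. Among 9 chemokine and growth factor ligands Cxcl12 was the only one at least 2-fold higher and Pdgfa the only one lower. Among 10 receptors and co-receptors, Pdgfrb was higher, and the median log2 ratio was 0.62. In the Wnt list 2 of 10 genes were higher, Wnt4 (2.27-fold) and the receptor Fzd1 (2.01-fold), and in the BMP and TGF-beta list 1 of 9, Tgfbi. Wnt4 is a secreted Wnt of the developing kidney and ovary. None of 4 Hedgehog genes passed 2-fold in either direction.

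**Figure D2:**
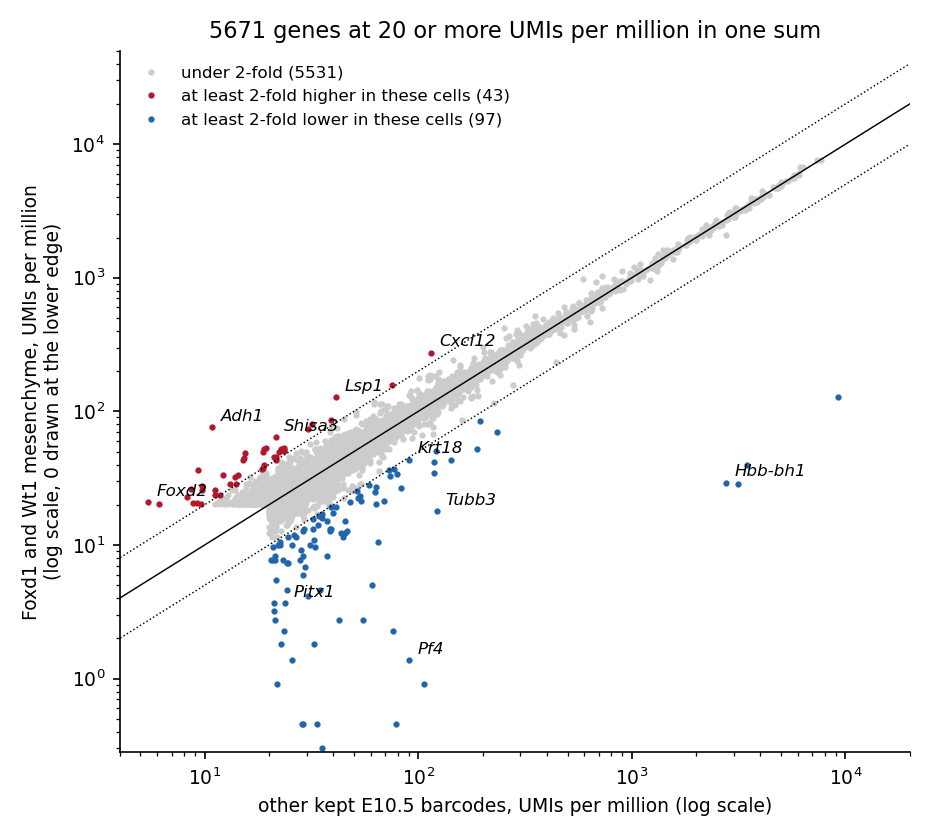
Each point is 1 of 5671 genes, with its summed level in Foxd1 and Wt1 mesenchyme (vertical axis) and in the other kept E10.5 barcodes (horizontal axis), both in CPM on log scales, and dotted lines at 2-fold. The 43 genes at least 2-fold higher lie mostly close to the upper dotted line, with Adh1 furthest from it, and the 97 lower genes spread widely below the other.

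The lower genes included those of other lineages of the library. All 6 erythroid genes with enough counts were lower, and the 10 erythroid markers summed to 227.9 CPM in the selected cells and 18638.9 CPM in the other barcodes, with Hba-a2 at 0. Most barcodes of both sets had little of these markers: the median over cells was 206.1 CPM in the selected cells and 219.2 CPM in the other barcodes, whose highest value was 724426.4 CPM. Among ranked genes, Pf4, a platelet chemokine, was 65.7-fold lower from 3 UMIs (interval 22.5 to 319), and Car2, a carbonic anhydrase abundant in red cells, 20.1-fold lower. Mt1, a metallothionein, had 2.29 CPM in the selected cells and 76.4 CPM in the other barcodes, 33.4-fold lower. The neuronal genes Tubb3 and Stmn2 were 6.88-fold and 6.16-fold lower, among 4 of 5 neural genes that were lower, and 61.5% of the Tubb3 UMIs of the selected cells came from 1 cell. In the limb and lateral plate list 4 of 6 were lower, among them Pitx1 (6.49-fold), Hand1 (5.33-fold), Irx3 (4.53-fold) and Isl1 (3.10-fold). The other 2, Prrx1 and Prrx2, had ratios of 1.71 and 1.84, and the whole list summed to 280.5 CPM in the selected cells and 325.8 CPM in the other barcodes. In the nephric duct list 5 of 6 were lower, among them Krt8 (3.87-fold), Wfdc2 (2.95-fold) and Krt18 (2.09-fold). Igfbp2, a binding protein of insulin-like growth factors, was 3.40-fold lower, and Tcf15, a bHLH factor of the paraxial mesoderm, 2.83-fold.

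For the muscle genes Actc1 and Myog, most UMIs of the selected cells came from 1 cell. Actc1, a cardiac and skeletal muscle actin, was 3.32-fold lower, and Myog, a muscle differentiation factor, 2.25-fold. Of the UMIs that the selected cells held, 80.5% of Actc1 and 91.7% of Myog came from a single cell. The ratios without the 13 cells that carried markers of another lineage were larger for both, with Actc1 18.6-fold lower and Myog 48.9-fold lower. Without those cells, 45 genes were higher by 2-fold or more and 125 were lower.

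Detection at equal depth gave the same order of sets for the leading genes. When every barcode was thinned to 3000 UMIs, which left 239 of the selected cells and 5541 others, Adh1 was counted in 18.4% of the selected cells (13.7 to 23.9%) and in 2.42% of the others. In 317 erythroid, endothelial and leukocyte barcodes, which should lack the gene, it was counted in 0.316%. Before thinning these shares were 29.2% of the selected cells, 4.49% of the others and 0.617% of the erythroid, endothelial and leukocyte barcodes, whose median depth was 12273.5 UMIs. Cxcl12 was counted in 45.2% of the thinned selected cells, 22.8% of the others and 0.946% of the erythroid, endothelial and leukocyte barcodes. The shares of Lsp1 were 33.1%, 11.3% and 4.42% in the same order, and those of Alx1 23.4%, 8.52% and 0.631%. Foxd1 itself was left in 49.4% of the thinned selected cells, so about as many cells lost their Foxd1 UMI at that depth as kept it.

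The nearest comparison was with 877 cells that carried Wt1 or Tbx18 and no Foxd1, Pax1, Pax9 or Upk3b UMI. Fewer genes passed 2-fold here than against all other barcodes, and those that were lower included genes of the coelomic epithelium and gonadal ridge. Of 5674 genes, 8 were higher in the selected cells by 2-fold or more (0.141%) and 37 were lower by as much (0.652%), with a median log2 ratio of 0.02. Adh1 had 76.0 CPM in the selected cells and 42.1 CPM in the cells without Foxd1, a ratio of 1.81 (1.48 to 2.20), and Cxcl12 had 275 CPM against 167.5 CPM in the cells without Foxd1, a ratio of 1.64 (1.48 to 1.82). Both stayed under 2-fold, as did Ptx3 (1.90), the collagen genes Col26a1 (1.78) and Col9a1 (1.66), and Prrx1 (1.58). Several genes that were higher against all other barcodes did not stand apart here. Tcf21 had 25.6 CPM in both sets, and Ecm1 44.9 CPM against 45.3 CPM in the cells without Foxd1. Osr1 had 49.9 CPM against 46.5 CPM in the cells without Foxd1, and Wnt4 53.5 CPM against 65.4 CPM. Pdgfrb kept a difference, with 23.8 CPM against 13.4 CPM in the cells without Foxd1.

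The 8 higher genes had low levels. They included Foxd2 (21.1 CPM in the selected cells and 10.3 CPM in the cells without Foxd1, 2.05-fold), the collagen gene Col23a1 (2.17-fold) and Wnt5a, a secreted Wnt of mesenchyme (2.14-fold). The other 5, named after their values were seen, were Zic1 (5.02-fold), Draxin (2.77-fold), Slc1a3 (2.52-fold), P3h3 (2.11-fold) and Ttn. Zic1, a zinc finger factor of dorsal somite and neural tube, was counted in 11 of the 240 cells. Ttn, the sarcomere protein titin, had most of its UMIs of the selected cells in 1 cell.

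Of 9 gonadal ridge and coelomic epithelium genes, 4 were at least 2-fold lower and none higher, with a median log2 ratio of -0.86. Lhx9, a LIM homeobox factor of the genital ridge, had 8.70 CPM in the selected cells and 39.7 CPM in the cells without Foxd1, 4.56-fold lower (2.87 to 7.70). Krt8 was 3.31-fold lower, Krt18 2.53-fold (43.5 CPM against 109.8 CPM in the cells without Foxd1) and Emx2, a homeobox factor of the urogenital epithelium, 2.47-fold. Rspo1, a Wnt agonist of the ovary, was 2.29-fold lower, and Ptn, a heparin-binding growth factor, 2.04-fold (235.7 CPM against 480.1 CPM in the cells without Foxd1). Aldh1a2 was 1.70-fold lower (89.7 CPM against 152 CPM in the cells without Foxd1) and so under the size used for a call. Hand1, of lateral plate mesoderm, was 4.48-fold lower. The cells without Foxd1 also summed to 2311.4 CPM of the 10 erythroid markers, against 227.9 CPM in the selected cells, and the part of red cell RNA in the result was not tested. Of the Hbb-y UMIs of the cells without Foxd1, 44.0% came from 1 cell.

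The other comparison kept Foxd1 and changed the company it was in. It was made with 319 cells that carried Foxd1 and at least 1 UMI of Pax1 or Pax9. Of 5699 genes, 121 were higher in the selected cells by 2-fold or more (2.12%) and 59 were lower by as much (1.04%), with a median log2 ratio of -0.00. Genes of urogenital mesenchyme and coelomic epithelium were higher, and genes of cartilage precursors and somites lower. The epithelial genes were uneven over the selected cells. Krt18 had 154.8 CPM in the 36 that fell in cluster 3 of the clustering given below. It had 11.1 and 8.73 CPM in those of clusters 4 and 9, against 19.7 CPM in the Pax1 or Pax9 cells. Aldh1a2 had 309.6 CPM in cluster 3 and 59.1 and 43.7 CPM in clusters 4 and 9, against 27.6 CPM in the Pax1 or Pax9 cells.

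Alx1 had 80.1 CPM in the selected cells and 7.26 CPM in the Pax1 or Pax9 cells, 11.04-fold higher (7.001 to 18.28). Adh1 had 76.0 CPM against 10.4 CPM in the Pax1 or Pax9 cells, 7.33-fold higher (4.95 to 11.2). Tcf21 was 9.27-fold higher, Gata6, a factor of splanchnic and coelomic mesoderm, 9.01-fold, Emx2 8.33-fold and Wnt4 8.16-fold, each from 10 or fewer of the Pax1 or Pax9 cells, apart from Wnt4 with 12. Lsp1 was 6.06-fold higher, Shisa3 4.56-fold and the Wnt antagonist Sfrp1 3.93-fold (265 CPM against 67.4 CPM in the Pax1 or Pax9 cells). Cxcl12 stayed under 2-fold between these kinds of Foxd1 cell. It had 275 CPM in the selected cells and 325.8 CPM in the Pax1 or Pax9 cells, a ratio of 0.844 (0.761 to 0.936). Foxc2 (ratio 0.907) and Foxc1 (0.649) also stayed under 2-fold.

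By list, 5 of 6 gonadal ridge and coelomic epithelium genes were higher, and 5 of 13 stromal genes, among them Nr2f2 (2.79-fold). In the BMP and TGF-beta list 6 of 9 genes were higher, among them Bmp4, a ligand (2.96-fold), its target Id2 (2.45-fold) and Bambi, a decoy receptor (2.33-fold), with a median log2 ratio of 1.17. In the retinoic acid list 5 of 12 were higher and 1, Rbp4, lower. Crabp1, which binds retinoic acid in the cytoplasm, had 407.3 CPM in the selected cells and 118.5 CPM in the Pax1 or Pax9 cells (3.44-fold), and Aldh1a2 was 3.25-fold higher. In the sclerotome list, which leaves out Pax1 and Pax9, 5 of 8 genes were lower: Uncx (5.89-fold), the cartilage collagen Col2a1 (4.07-fold), Meox1 (3.14-fold), Sox9 (2.69-fold) and Sox5 (2.68-fold). The comparison cells were chosen by Pax1 or Pax9, so lower levels of other sclerotome genes describe that choice and are no independent support. Outside that list, Lum, a matrix proteoglycan, was 12.52-fold lower, Pcp4, a calmodulin regulator, 11.4-fold, Meox2, a somite homeobox factor, 8.002-fold and Tcf15 5.21-fold. Ptch1, the Hedgehog receptor and target, was 2.27-fold lower. The endothelial markers summed to 175.7 CPM in the selected cells and 76.7 CPM in the Pax1 or Pax9 cells, and their part in the result was not tested. Without the 13 cells that carried markers of another lineage, 118 genes were higher and 74 lower.

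Hox genes, whose order along the chromosome follows their order of use along the body axis, had a like profile in the selected cells and in the rest of the library. Against the other barcodes none of 11 anterior and middle Hox genes and none of 5 posterior ones passed 2-fold. Among the genes tested the largest ratios were 1.55 for Hoxc6, 1.54 for Hoxc9, 1.49 for Hoxc10 and 1.46 for Hoxa5. Summed by paralogue group, the group 9 genes had 319 CPM in the selected cells, 245.6 CPM in the other barcodes and 209.3 CPM in the Pax1 or Pax9 cells. The group 10 genes had 103 CPM in the selected cells, 80.6 CPM in the other barcodes and 44.9 CPM in the Pax1 or Pax9 cells. Group 11 had 2.29 CPM from 5 UMIs in the selected cells, against 7.91 CPM in the other barcodes. Against the Pax1 or Pax9 cells, 3 of 5 posterior Hox genes were at least 2-fold higher: Hoxd9 (3.27-fold), Hoxc10 (2.23-fold) and Hoxa9 (2.21-fold).

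**Figure D3:**
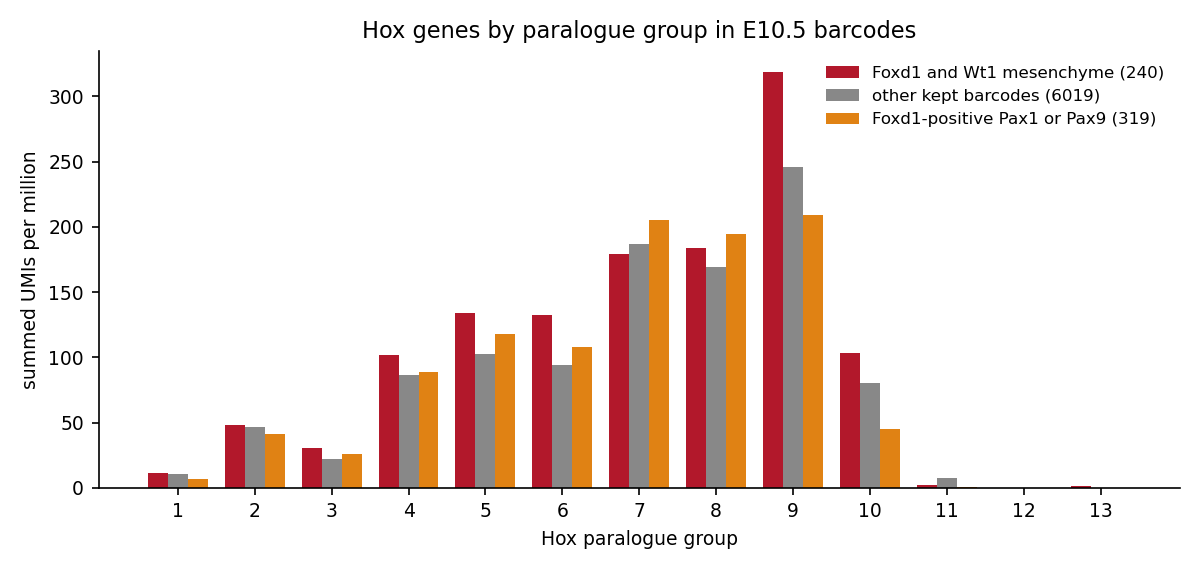
Bars give the summed level of the Hox genes of each paralogue group, in CPM, in Foxd1 and Wt1 mesenchyme, the other kept E10.5 barcodes and the Foxd1-positive Pax1 or Pax9 cells. All 3 sets peaked at group 9, at 319, 245.6 and 209.3, and none of them passed 10 from group 11 on.

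To see where the selected cells lay among all E10.5 cells, the library was clustered with the 6 rule genes left out. Of the 22 clusters, 4 held 212 of the 240 cells (88.3%), and the other 28 were scattered over the remaining 18 clusters, with at most 8 in one and none in 9 of them. The clusters are given by number and by their leading genes. Cluster 4, led by Cnn1, Tagln, Adh1 and Acta2, held 78 of the cells (32.5%). Cluster 9, led by Adh1 and Ptx3, held 71 (29.6%), which made up 28.7% of that cluster. Cluster 3, led by Cst9, Lhx9, Myl7, Ibsp and Aldh1a2, held 36 (15%), and cluster 0, led by Zic1, Pcp4, Meox2, Lum and Uncx, held 27 (11.3%). No cluster consisted mainly of the selected cells.

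The comparison sets were spread differently. Of the Pax1 or Pax9 cells 76.5% fell in cluster 0, and of the Wt1 or Tbx18 cells without Foxd1 29.0% fell in cluster 3, 19.2% in cluster 4 and 9.58% in cluster 9. Among the 15 nearest neighbours of each selected cell, 17.4% were themselves selected cells, which make up 3.83% of the kept barcodes. Another 35.8% were Wt1 or Tbx18 cells without Foxd1 and 6.14% were Pax1 or Pax9 cells. Of the 240 cells, 40 had no selected cell among their neighbours.

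**Figure D4:**
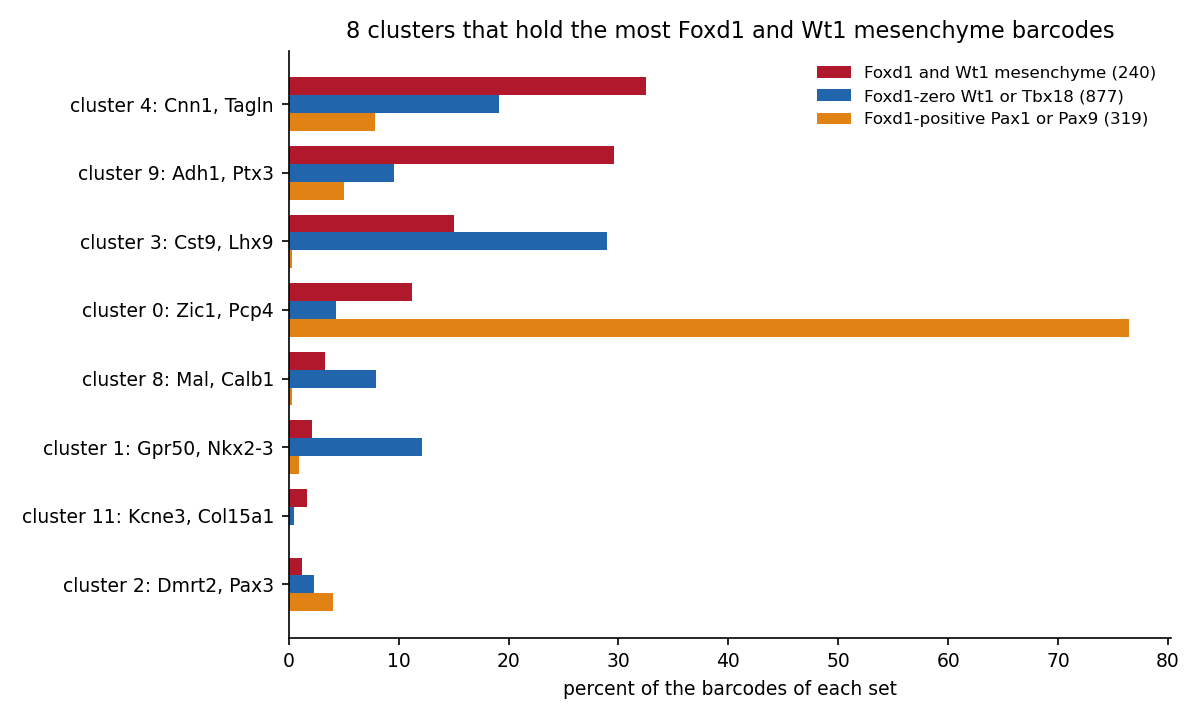
Bars give, for the 8 clusters that held most of the Foxd1 and Wt1 mesenchyme cells, the percent of each set of E10.5 cells that fell in the cluster, with the 2 leading genes of the cluster beside its number. Clusters 4 and 9 held 32.5% and 29.6% of the Foxd1 and Wt1 mesenchyme cells, while cluster 0 held 76.5% of the Foxd1-positive Pax1 or Pax9 cells.

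The clusters were made from the genes given here, so their levels describe the clusters and are no test. Adh1 was highest in clusters 4 and 9, with 145.9 CPM and 106.2 CPM in the selected cells, while those in cluster 3 had 14.9 CPM and those in cluster 0 had 0 UMIs. Within cluster 4, Adh1 was counted in 32 of the 78 selected cells (41.0%) and in 20.9% of the other cells of the cluster, and within cluster 9 in 31 of 71 (43.7%) and 31.8%. The selected cells of these clusters were also deeper, with medians of 6314 UMIs against 5402.5 in the other cells of cluster 4 and 9087 against 8095 in those of cluster 9. Clusters 4 and 9 together held 72.8% of all Adh1 UMIs of the library in 12.7% of its kept barcodes, and the selected cells held 25.7% of them. Adh1 UMIs were therefore mostly in cells outside the rule.

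The selected cells of cluster 3 and of cluster 0 differed from those of clusters 4 and 9 in other genes too. In cluster 3 the selected cells had 309.6 CPM of Aldh1a2, 154.8 CPM of Krt18, 44.7 CPM of Lhx9 and 104.2 CPM of Wnt4. The selected cells of clusters 4 and 9 had 59.1 and 43.7 CPM of Aldh1a2, 11.1 and 8.73 CPM of Krt18, and 1.85 and 1.46 CPM of Lhx9. In cluster 0 they had 260.7 CPM of Meox1, 121.7 CPM of Zic1 and no UMI of Wnt4, Tcf21 or Lhx9. Crabp1 reached 526.2 and 606.9 CPM in clusters 4 and 9, against 122 CPM in cluster 3 and 212.9 CPM in cluster 0. Cxcl12 was more even, at 445 CPM in cluster 4 and between 252 and 259.1 CPM in the other 3. In cluster 4 the smooth muscle genes that led it had lower sums in the selected cells. Acta2 had 55.4 CPM in the selected cells and 780.5 CPM in the other cells of the cluster, Tagln 162.5 CPM against 598.4 CPM in the other cells, and Cnn1 9.23 CPM against 60.0 CPM in the other cells. The shares of cells with a UMI were closer, with Tagln in 32.1% of the selected cells and 35.3% of the other cells of the cluster, and Acta2 in 11.54% of the selected cells and 20.4% of the other cells.

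The selected cells were then divided by which second gene had placed them in the set. The 158 cells with Wt1 and no Tbx18 UMI were compared with the 41 cells with Tbx18 and no Wt1 UMI. Of 6032 genes, 241 were higher in the Wt1 cells by 2-fold or more (4%) and 298 were lower by as much (4.94%), with a median log2 ratio of -0.01. With 41 cells on one side a gene near the minimum rests on few UMIs, and of genes at 100 CPM or more 4 were higher and 26 lower, a minimum chosen after the data were seen. The groups also lay in different clusters: 14 of the 158 Wt1 cells and 10 of the 41 Tbx18 cells were in cluster 0, where the selected cells had no Adh1 or Wnt4 UMI. The part of that spread in the differences was not tested.

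Adh1 had 75.2 CPM in the Wt1 cells, where 47 of 158 carried it, and 12.3 CPM in the Tbx18 cells, where 3 of 41 did, which was 6.12-fold higher (2.32 to 22.8). The 41 cells with both genes had 131 CPM of Adh1. Wnt4 was 5.06-fold higher in the Wt1 cells, Fst, an activin antagonist, 2.78-fold, Igdcc3, an immunoglobulin-family surface protein, 2.69-fold and Crabp1 2.07-fold. Cxcl12 had the opposite order, with 226.9 CPM in the Wt1 cells and 396.6 CPM in the Tbx18 cells (ratio 0.572, 0.466 to 0.707), and 352.6 CPM in the cells with both. The 3 groups of cells thus differed in Adh1 and Cxcl12 without a common order.

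In the smooth muscle list 3 of 4 genes were lower in the Wt1 cells by 2-fold or more and none higher. Tagln, an actin-binding protein of smooth muscle, had 41.0 CPM in the Wt1 cells and 230.6 CPM in the Tbx18 cells, 5.62-fold lower (3.95 to 8.03), with 20% of the Tbx18 cells' UMIs in 1 cell. The ratio without the cells that carried markers of another lineage was 5.23-fold. Acta2 was 11.2-fold lower, but 74.7% of its UMIs in the Tbx18 cells came from 1 cell, and it was 3.00-fold lower without the cells that carried markers of another lineage. The muscle genes Myog and Tnnt2 had 98.5% and 100% of their UMIs in the Tbx18 cells in 1 cell. Without cells that carried markers of another lineage, Myog had 0 UMIs in the Wt1 cells and 1 in the Tbx18 cells. The cadherin gene Cdh11 and the forkhead gene Foxp2 were 2.32-fold and 2.48-fold lower in the Wt1 cells. The endothelial markers summed to 229.7 CPM in the Wt1 cells and 73.8 CPM in the Tbx18 cells, and 12 of the 13 cells with markers of another lineage were Wt1 cells. Without those 13 cells 238 genes were higher and 280 lower.

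The same rule was applied to the other libraries. The share of barcodes that met it, each thinned to 3000 UMIs, was 1.33% at E10.5 (77 of 5780, 1.05 to 1.66%), 0.560% at E11.5 (15 of 2680) and 0.0625% at E12.5 (2 of 3199). At E13.5 it was 0 of 4443, which has a Clopper-Pearson upper limit of 0.0830% (0.0675% by the limit of 3 counts that a count of 0 allows), and at E14.5 0.0254% (1 of 3942). In Induced D6 it was 0.462% (34 of 7353, 0.320 to 0.646%). Without thinning, 240 of 6259 met the rule at E10.5, 71 of 2720 at E11.5, 10 of 3249 at E12.5, 2 of 4566 at E13.5, 3 of 4308 at E14.5 and 74 of 7519 in Induced D6. Thinned shares were highest at E10.5. The dissected piece of tissue, the stage and the library cannot be told apart in these shares.

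**Figure D5:**
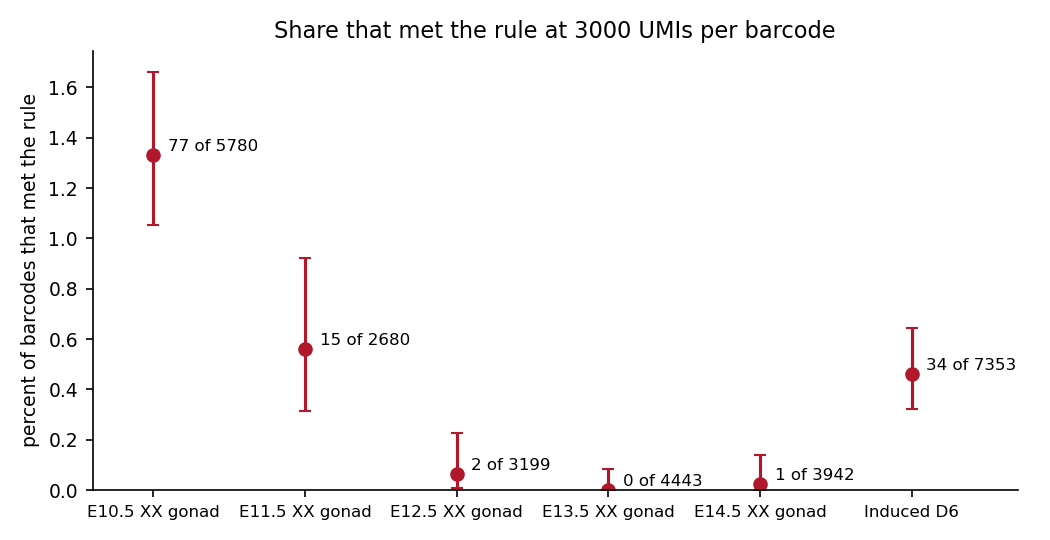
Points give the percent of barcodes, each thinned to 3000 UMIs, that met the rule in each of the 6 libraries, with exact Clopper-Pearson 95% intervals that cover counting error only. The share was 1.33% at E10.5, 0.560% at E11.5 and 0.462% in Induced D6, and at most 0.0625% at E12.5 to E14.5.

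Before thinning, Foxd1 was counted at E10.5 in 13.8% of kept barcodes, at E11.5 in 3.35%, and then in 0.554% (E12.5), 0.219% (E13.5) and 0.209% (E14.5), with 1.14% in Induced D6. Wt1 or Tbx18 was counted at E10.5 in 23.9%, at E11.5 in 78.7%, and then in 71.6% (E12.5), 61.3% (E13.5) and 58.7% (E14.5), with 96.2% in Induced D6. From E10.5 to E11.5 the share with Foxd1 was thus lower and that with Wt1 or Tbx18 higher. From E11.5 to E14.5 the share with Wt1 or Tbx18 was lower at each later stage. Median UMIs per kept barcode fell in the same order, at 11956 (E11.5), 10132 (E12.5), 9426.5 (E13.5) and 7386.5 (E14.5). At E10.5 the median was 6534. The part of depth in the Wt1 or Tbx18 shares was not tested. The share with Foxd1 was lower at E12.5 to E14.5 than at E11.5, but rested on 10 barcodes at E13.5 and 9 at E14.5. At 3000 UMIs per barcode those 2 stages had the opposite order, with 1 barcode at E13.5 (0.0225%) and 5 at E14.5 (0.127%). None of the 74 Induced D6 cells that met the rule carried Tbx18.

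The cells that met the rule at E11.5 and in Induced D6 had little Adh1. It had 2.53 CPM in the 71 E11.5 cells (3 UMIs) and 1.81 CPM in the 74 Induced D6 cells (1 UMI), against 76.0 CPM in the E10.5 cells. Cxcl12 had 179 CPM in the E11.5 cells and 75.9 CPM in the Induced D6 cells, against 275 CPM in the E10.5 cells. In both, Cxcl12 lay above the other barcodes of the same library, at 49.2 CPM for E11.5 and 30.6 CPM for Induced D6.

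Gonadal somatic genes were far higher in the cells that met the rule at E11.5 and in Induced D6, as they were in the rest of those libraries. Gata4, a factor of the gonadal somatic lineage, had 114.9 CPM in the E11.5 cells and 128.2 CPM in the Induced D6 cells, against 7.78 CPM in the E10.5 cells. The other barcodes had 74.3 CPM of Gata4 at E11.5 and 127.7 CPM in Induced D6. Nr5a1 had 28.7 CPM in the E11.5 cells and 66.8 CPM in the Induced D6 cells, against 0.458 CPM in the E10.5 cells. The other barcodes had 33.7 CPM of Nr5a1 at E11.5 and 60.8 CPM in Induced D6. Lhx9 was an exception in the Induced D6 cells that met the rule. It had 217.9 CPM in the E11.5 cells but 10.8 CPM (6 UMIs) in the Induced D6 cells, against 8.70 CPM in the E10.5 cells. The other barcodes had 332.5 CPM of Lhx9 at E11.5 and 66.4 CPM in Induced D6. Large differences included Kctd14, which had 1343.7 CPM in the E11.5 cells, 1419.5 CPM in the Induced D6 cells and 0 UMIs in the E10.5 cells, and Akr1cl, an aldo-keto reductase, which had 926.5 CPM in the E11.5 cells, 386.5 CPM in the Induced D6 cells and 0.458 CPM in the E10.5 cells. Meox1 had 0.845 CPM in the E11.5 cells and 82.4 CPM in the E10.5 cells. Crabp1 had 43.9 CPM in the E11.5 cells and 407.3 CPM in the E10.5 cells. The erythroid markers summed to 8409.1 CPM in the E11.5 cells, 3.61 CPM in the Induced D6 cells and 227.9 CPM in the E10.5 cells. The germ cell markers summed to 213.7 CPM in the E11.5 cells, 83.1 CPM in the Induced D6 cells and 33.0 CPM in the E10.5 cells. Of these sums, Ifitm3 alone made up 66.8 CPM in the Induced D6 cells and 21.05 CPM in the E10.5 cells. The part of RNA from other cells in these differences was not tested.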

How the data were processed

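The authors deposited, for each library, a matrix of UMI counts that had not been normalized. Per the submitters' processing notes, Cell Ranger 3.0.2 and the mm10 build were used. How Cell Ranger separated cells from empty droplets is not stated in the labels or file headers. The libraries were made with a 3′ Chromium v2 kit after 30 min in papain, per the labels' protocols. Library totals were 37606947 to 52146419 UMIs. Of 31053 gene identifiers, 30934 matched GENCODE vM21.

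The filter on barcodes asked for 500 or more genes and no more than 10% mitochondrial UMIs. No doublets were removed. Counts were summed over cells and scaled to CPM. Genes with 20 CPM or more in either sum were called at 2-fold. Ratios carry exact conditional binomial 95% intervals, shares Clopper-Pearson intervals and levels Poisson intervals. A sum of 0 was set to 3 counts for ratios. For clusters, scanpy 1.11.5 with leidenalg 0.10.2 used 2000 variable genes, 30 components, 15 neighbours and resolution 1, with the random seed at 0. Levels and ratios were computed with numpy 2.4.6 and scipy 1.17.1 on Python 3.11.15, and the ratio calculation was tested on simulated data.

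The named genes were 34 key genes, the 15 largest ratios in each direction at 50 CPM or more (8 in the other comparisons) and up to 4 genes from each of 32 lists, without mitochondrial, ribosomal and haemoglobin genes. Genes outside that rule appear only as members of a counted list or where said. The members and lists were chosen with earlier results of these data known. The alternatives were other filters on barcodes, other forms of the rule, removal of the highest Scrublet scores, thinning, other minimums and folds, and other scalings.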

Additional observations from a re-analysis of the deposited data

How the results depend on the processing

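No paired analysis was possible because each group has 1 library and no replicate. The share of E10.5 barcodes that met the rule, 3.83%, was 1.42% with at least 2 Foxd1 UMIs (89 cells) and 1.33% after thinning to 3000 UMIs. It was 3.18% when Wt1 was required as the second gene (199 cells) and 1.31% when Tbx18 was (82 cells). Each of those sets includes the cells with both genes, which were 0.655%. Against the other barcodes, the 43 higher genes became 71 with at least 2 Foxd1 UMIs, 99 with Tbx18 required and 189 with both genes. They became 335 after thinning, which leaves 77 cells of 3000 UMIs each. The 97 lower genes became 208 with both genes and 340 after thinning. With a 50 CPM minimum 14 were higher and 34 lower, with no minimum 863 and 1029, and with a fold of 4 only 1 and 32. Against the cells without Foxd1 (8 higher, 37 lower), the counts were 0 and 11 at 50 CPM, 380 and 693 with no minimum, and 1 and 8 at a fold of 4. Against the Pax1 or Pax9 cells (121 higher, 59 lower), they were 43 and 31 at 50 CPM, 978 and 577 with no minimum, and 22 and 17 at a fold of 4. Between the Wt1 and the Tbx18 cells (241 higher, 298 lower), they were 27 and 58 at 50 CPM, 28 and 65 at a fold of 4, and 4 and 26 at 100 CPM. The genes called over all lists, 44 against the other barcodes, were 22 against the cells without Foxd1.

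The share that met the rule at 3000 UMIs per barcode depended on depth. At E10.5 it was 1.33%, against 3.83% without thinning, 0.707% at 2000 UMIs and 2.79% at 5000 UMIs. At E11.5 it was 0.560%, against 2.61% without thinning and 1.06% at 5000 UMIs. At E12.5 it was 0.0625%, against 0.308% without thinning and 0.263% at 5000 UMIs. In Induced D6 it was 0.462%, against 0.984% without thinning, 0.268% at 2000 UMIs and 0.667% at 5000 UMIs, and at E14.5 it was 0 at 2000 UMIs.

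The Tcf21 ratio of 2.63 turned round, to 0.763 with at least 2 Foxd1 UMIs and 0.752 after thinning. Those sets held 89 cells and 77 thinned cells, and the cause was not tested. With the selected cells kept fixed, Tcf21 at 3000 UMIs was counted in 6.7% of them and in 2.98% of the others. Counts against the other barcodes moved by less than 1.5 times with stricter filters on genes or mitochondrial UMIs, without the highest Scrublet scores, with equal weight per cell, and with the other barcodes weighted to the depth of the selected cells. Of these, 37 higher and 103 lower was the split relative to the median of all genes. The 100 CPM minimum and the removal of cells with markers of another lineage were chosen after the data were seen. Depth limits the rule: a cell with 1 Foxd1 UMI and a cell with none may not differ in Foxd1.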

Other observations

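None of 17 S phase genes and none of 18 G2/M genes was at least 2-fold higher or lower in the selected cells than in the other barcodes, and the G2/M median log2 ratio was 0.20. The G2/M genes summed to 3125.9 CPM in the selected cells and 2713.9 CPM in the other barcodes. Of 16 genes of the extracellular matrix list none was higher and 1 was lower, Lum, with 7.78 CPM in the selected cells and 23.2 CPM in the other barcodes, and the median log2 ratio was 0.33. In the cells that met the rule at E11.5 and in Induced D6, the G2/M genes summed to 1173.1 CPM and 944.5 CPM.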
